A study of Homo sapiens with 6 samples.

Results

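The carbonyl reductases that metabolize anthracyclines are 9 genes of 2 enzyme superfamilies, and their mRNA was examined in doxorubicin-resistant breast cancer cells with and without cyperotundone (CYT). The genes were taken by symbol: AKR1A1, AKR1B1, AKR1B10, AKR1C1, AKR1C2 and AKR1C3 of the aldo-keto reductases, and CBR1, CBR3 and CBR4 of the short-chain dehydrogenases. They are 9 of the 58302 genes counted. CYT is a terpenoid ketone and a major constituent of sedge. RNA sequencing covered 6 libraries, 3 of control and 3 of CYT-treated MDA-MB-231-DR cells. This is a doxorubicin-resistant derivative of MDA-MB-231, an established human triple-negative breast cancer cell line, and the study kept it in medium with a low concentration of doxorubicin. The dose and duration of CYT for these libraries, the vehicle of the control and the presence of doxorubicin during the treatment are not given in the sources used here. A single resistant line was sequenced, so it stands for itself and not for resistant cells in general.

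Doxorubicin and daunorubicin carry a ketone on their side chain. Carbonyl reductases use NADPH to turn this ketone into an alcohol, giving doxorubicinol or daunorubicinol. The alcohol metabolites kill tumor cells less well than the parent drugs, and they are linked to the heart toxicity of anthracyclines. Other enzymes act on the quinone ring instead, by transferring 1 or 2 electrons, and the genes of that route were counted separately.

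The AKR1C genes are close copies, and their coding sequences are shown because they set how well short reads can be assigned to a single gene. The first 90 coding bases are printed 5′ to 3′ for the 3 AKR1C genes, with capitals where a base differs from AKR1C1.
AKR1C1: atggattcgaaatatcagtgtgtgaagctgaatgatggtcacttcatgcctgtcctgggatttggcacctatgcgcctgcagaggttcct
AKR1C2: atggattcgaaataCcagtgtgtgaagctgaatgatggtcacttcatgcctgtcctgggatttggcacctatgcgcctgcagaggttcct
AKR1C3: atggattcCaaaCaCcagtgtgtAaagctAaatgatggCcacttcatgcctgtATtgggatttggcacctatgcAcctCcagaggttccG
In this stretch AKR1C2 differed from AKR1C1 at 1 base and AKR1C3 at 11 bases. Over the whole coding sequence of 969 bases, AKR1C1 and AKR1C2 were 98.0% identical, with 19 differing bases. AKR1C3 was 91.4% identical to AKR1C1 and 91.0% identical to AKR1C2.

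The coding sequences of CBR1 and CBR3 were 77.3% identical. AKR1B1 and AKR1B10 were 76.2% identical, and CBR1 and CBR4 47.1%. Of all windows of 100 bases along the principal transcript (the longest coding transcript that GENCODE marks as principal), 32.9% in AKR1C2 and 17.4% in AKR1C1 also occurred in a transcript of another gene, mostly of each other. The share was 4.98% in AKR1C3 and 2.01% in AKR1B10, and 0 in AKR1A1, AKR1B1 and CBR4. No window of CBR1 occurred in CBR3. However, 30.6% of the CBR1 windows lay in AP000688.1 and 28.0% of the CBR3 windows in CBR3-AS1, both transcribed from the opposite strand. The sources used here do not say whether counting used the strand or how reads with several matches were handled, so AKR1C1 and AKR1C2 are uncertain as separate genes.

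The libraries held 13056270 to 17770102 counts. Replicates of a group correlated with r of 0.904 to 0.971 over the genes tested, and both lowest values involved CYT replicate 2, so results that rest on this library are given with and without it. Of the 8 markers of MDA-MB-231 cells examined, all were counted in every library, and 3 of them, VIM, AXL and EGFR, fell with CYT, although the call of AXL was lost without any 1 of the 6 libraries. Over all genes tested, 28.6% were called and 12.9% were called lower. With the replicate number as a block 5 of the 8 markers fell, beside 39.9% of all genes called. Their summed level was 4653 to 5010 CPM (counts scaled to a common library size) in control and 2315 to 2456 CPM in CYT. The luminal markers summed to 218 to 431 CPM in control and 32.7 to 58.6 CPM in CYT. Most of the control sum was KRT19, with a mean of 287 CPM there and 26.3 CPM in CYT. KRT19 had 3395 to 6722 counts in control and 147 to 546 in CYT, while GREB1 had 43 to 102 counts in control and 102 to 116 in CYT, CDH1 0 in control and 6, 16 and 2 in CYT, and ESR1 4 or fewer. Fibroblast markers summed to 19.1 to 35.8 CPM and 3.91 to 6.35 CPM, with DCN at 0. Blood markers reached at most 0.776 CPM and liver markers 1.75 CPM, where ALB had 0 counts in every control library and 12, 14 and 9 in CYT. The part of these shifts in the results below was not tested.

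Of the 9 genes, 8 passed the filter on low counts, and AKR1B10 did not. Under CYT, 1 of the 8 passed the test: CBR3 rose, by 1.96-fold. Over all 15572 genes tested, 28.6% were called in either direction and 15.7% were called higher, so 1 of 8 is no more than the share of genes called overall. With the replicate number as a block, 3 of the 8 were called, all higher, beside 39.9% of all genes called and 20.0% called higher. DESeq2 also called 3 of the 8 higher, beside 33.9% called and 18.8% called higher. A call is a p under 0.05 in the quasi-likelihood test of edgeR, after adjustment by Benjamini and Hochberg over all genes tested. The groups did not overlap in 4 of the 8 genes (50.0%), beside 46.1% of all genes tested. The fitted log2 fold change was above 0 in 3 of the 8, with a median of -0.31 beside 0.0064 over all genes. The median absolute change was 0.69, beside 0.73 over all genes. In bulk RNA, fewer cells of a type and less RNA per cell cannot be told apart.

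**Figure D1:**
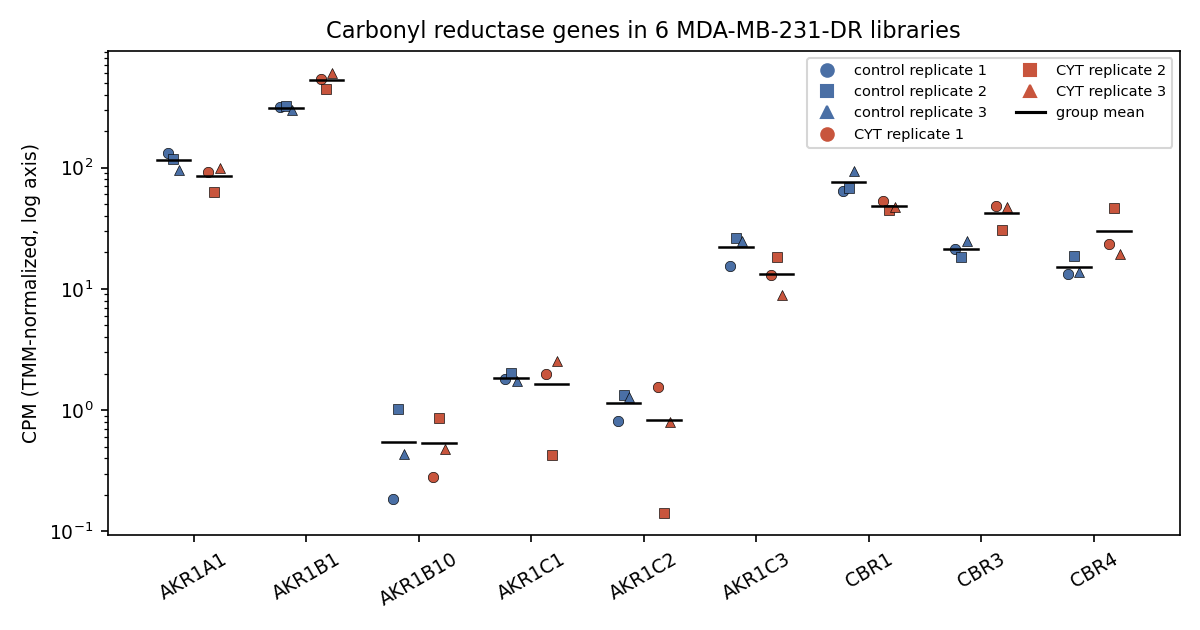
Level of each carbonyl reductase gene in each library, in TMM-normalized CPM on a log axis. Points are libraries, with the shape giving the replicate number, and black lines are group means over 3 libraries. AKR1B1 stood at 296 to 605 CPM in all libraries, and AKR1B10, AKR1C1 and AKR1C2 at 2.54 CPM or less.

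CBR3 is a cytosolic reductase close to CBR1 and known for weaker activity on anthracyclines in the test tube. It lies on the plus strand at chr21:36134912-36146566 (GRCh38; ENSG00000159231). Its counts were 346, 344 and 344 in control and 683, 431 and 596 in CYT. Normalized levels were 21.5, 18.3 and 24.7 CPM in control and 48.2, 30.7 and 47.4 CPM in CYT. All CYT libraries were above all control libraries, with replicate 2 the lowest of the CYT group. The means were 21.5 ± 3.21 CPM and 42.1 ± 9.87 CPM (SD, n = 3 each), and the log2 fold change was 0.97 with a standard error of 0.31 (edgeR, adjusted p = 0.0424). The adjusted p of edgeR was 0.0919 with no filter on low counts, and between 0.101 and 0.139 without control replicate 1, 2 or 3 or CYT replicate 1 or 3. The log2 fold change was 0.85 to 1.06 in these fits. The call held in 8 of the 14 alternative fits, among them DESeq2 (adjusted p = 0.0142) and the replicate block (edgeR, adjusted p = 0.0132). Without CYT replicate 2 the log2 fold change was 1.15 and the edgeR adjusted p 0.00746. CBR3-AS1, which overlaps CBR3 on the opposite strand, had 42, 45 and 30 counts in control and 20, 77 and 32 in CYT.

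CBR1, the main cytosolic reductase of doxorubicin and daunorubicin in most tissues, lies on the plus strand at chr21:36069941-36073166 (ENSG00000159228). Counts were 1032, 1286 and 1309 in control and 746, 626 and 591 in CYT. The levels were 64.0, 68.5 and 94.1 CPM in control and 52.6, 44.6 and 47.0 CPM in CYT, and the 2 groups did not overlap, with CYT the lower. The means were 75.5 ± 16.3 CPM and 48.0 ± 4.14 CPM (SD, n = 3 each). The log2 fold change of -0.65, with a standard error of 0.29, did not pass the threshold after adjustment (edgeR, adjusted p = 0.120). It did not pass in any of 14 alternative fits, where it ranged from -0.78 to -0.49. SETD4, which overlaps CBR1 on the opposite strand, had 109, 156 and 157 counts in control and 68, 93 and 61 in CYT.

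The ratio of CBR3 to CBR1 within a library was looked at after the values of both genes had been seen, and it is a description. The count ratio was 0.335, 0.267 and 0.263 in control, and 0.916, 0.688 and 1.01 in CYT. Control libraries thus held roughly 3 to 4 CBR1 counts for each CBR3 count, while CYT replicates 1 and 3 held nearly equal counts and CYT replicate 2 held more of CBR1. The mean difference in the log2 ratio was 1.58, and it does not depend on gene length. With counts of CBR1 and CBR3 added, the log2 fold change was -0.11 with a standard error of 0.29 (edgeR, adjusted p = 0.813).

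CBR4 is a mitochondrial member that works with HSD17B8 as the ketoacyl reductase of mitochondrial fatty acid synthesis and also reduces quinones. It lies on the minus strand at chr4:168863770-169010275 (ENSG00000145439). Its counts were 212, 349 and 192 in control and 334, 652 and 242 in CYT. The levels were 13.1, 18.6 and 13.8 CPM in control and 23.6, 46.4 and 19.2 CPM in CYT. The groups did not overlap, but the lowest CYT library, replicate 3, was close to the highest control library, replicate 2, and CYT replicate 2 was far above the rest. The means were 15.2 ± 2.97 CPM and 29.7 ± 14.6 CPM (SD, n = 3 each), with a log2 fold change of 0.97 and a standard error of 0.39 (edgeR, adjusted p = 0.0909). CBR4 was called by DESeq2, at a log2 fold change of 0.995 (adjusted p = 0.0496), and with the replicate number as a block, at 0.88 (edgeR, adjusted p = 0.0282). Without CYT replicate 2 the log2 fold change was 0.49 (edgeR, adjusted p = 0.223). The partner gene HSD17B8 fell, with 516, 375 and 274 counts in control and 154, 127 and 141 in CYT (log2 fold change -1.20, edgeR adjusted p = 0.0231). The call of HSD17B8 was lost without control replicate 1, CYT replicate 1 or CYT replicate 3. PALLD, which overlaps CBR4 on the opposite strand, had 422 to 1075 counts in control and 439 to 688 in CYT.

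AKR1B1 is aldose reductase, which turns glucose into sorbitol and also reduces lipid aldehydes and anthracycline ketones. It was the most abundant of the 9 in every library, on the minus strand at chr7:134442350-134459284 (ENSG00000085662). Its counts were 5076, 6038 and 4115 in control and 7589, 6267 and 7613 in CYT. The levels were 315, 321 and 296 CPM in control and 535, 446 and 605 CPM in CYT, with no overlap between the groups. The means were 311 ± 13.3 CPM and 529 ± 79.6 CPM (SD, n = 3 each), which is 1.70-fold. The log2 fold change of 0.77, with a standard error of 0.26, lay just outside the threshold (edgeR, adjusted p = 0.0534). It passed in 8 of the 14 alternative fits, among them DESeq2 (adjusted p = 0.0217), the replicate block (edgeR, adjusted p = 0.0374) and the fit without CYT replicate 2 (edgeR, adjusted p = 0.0185). The log2 fold change was 0.68 to 0.91 over all 14.

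AKR1B10 is the closest relative of AKR1B1, known from the gut and from several carcinomas as a reductase of retinal and of daunorubicin. It lies on the plus strand at chr7:134527592-134541408 (ENSG00000198074). It had 3, 19 and 6 counts in control and 4, 12 and 6 in CYT. At 0.543 ± 0.424 and 0.538 ± 0.291 CPM (SD, n = 3 each), it was too low to test, and a change was not detectable at this depth. Fitted with no filter on low counts, its log2 fold change was -0.12 (edgeR, adjusted p = 0.937).

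AKR1A1, the general aldehyde reductase, lies on the plus strand at chr1:45550543-45570049 (ENSG00000117448). It had 2107, 2228 and 1336 counts in control and 1308, 880 and 1253 in CYT. The levels of 131, 119 and 96.1 CPM in control and 92.3, 62.6 and 99.6 CPM in CYT overlapped. The means were 115 ± 17.6 CPM and 84.8 ± 19.6 CPM (SD, n = 3 each), and the log2 fold change was -0.44 with a standard error of 0.30 (edgeR, adjusted p = 0.303). It was -0.27 without CYT replicate 2, the lowest library (edgeR, adjusted p = 0.422).

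AKR1C3 makes testosterone from androstenedione, forms prostaglandin F, and reduces doxorubicin. It was the most counted of the 3 AKR1C genes, on the plus strand at chr10:5035354-5107686 (ENSG00000196139). Its counts were 248, 490 and 348 in control and 184, 256 and 112 in CYT. The levels of 15.4, 26.1 and 25.0 CPM in control overlapped those of 13.0, 18.2 and 8.90 CPM in CYT. The means were 22.2 ± 5.90 CPM and 13.4 ± 4.67 CPM (SD, n = 3 each), and the log2 fold change was -0.73 with a standard error of 0.37 (edgeR, adjusted p = 0.171). Without CYT replicate 2 the log2 fold change was -1.03 and passed the threshold (edgeR, adjusted p = 0.0481).

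AKR1C1, which inactivates progesterone, and AKR1C2, which inactivates dihydrotestosterone, were near the limit of detection. AKR1C1 (chr10:4963253-4983283, plus strand, ENSG00000187134) had 29, 38 and 24 counts in control and 28, 6 and 32 in CYT. AKR1C2 (chr10:4987400-5018031, minus strand, ENSG00000151632) had 13, 25 and 18 counts in control and 22, 2 and 10 in CYT. Both were lowest in CYT replicate 2, and the groups overlapped in both. The log2 fold changes were -0.17 ± 0.60 and -0.46 ± 0.70 (standard error; edgeR, adjusted p = 0.857 and 0.661). Without CYT replicate 2 they were 0.28 and 0.034, the opposite sign (edgeR, adjusted p = 0.642 and 0.969). Since reads may be split between the copies, the 3 genes were also added together. The log2 fold change of the sum was -0.67 with a standard error of 0.33 (edgeR, adjusted p = 0.161). AKR1C3 held most of these counts, so the sum mainly follows AKR1C3. It cannot show how reads were divided between AKR1C1 and AKR1C2.

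**Figure D2:**
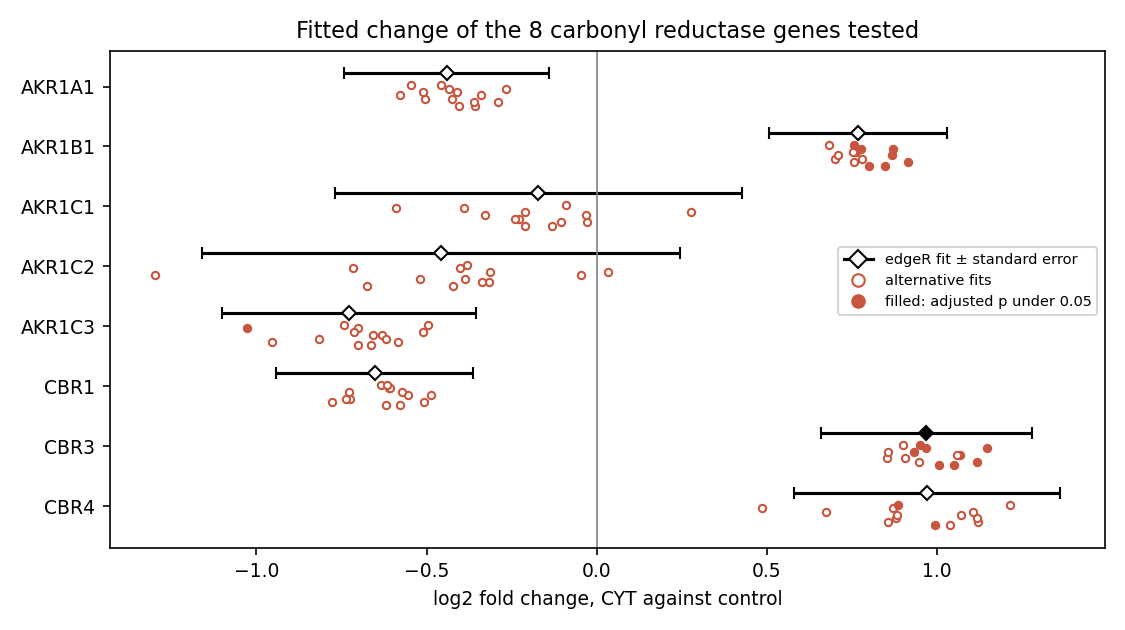
Log2 fold change of CYT against control for the 8 carbonyl reductase genes that were tested. Diamonds are the edgeR fit with its standard error, circles are the alternative fits, and filled symbols have an adjusted p under 0.05. CBR3 alone is filled in the edgeR fit, and AKR1C1 and AKR1C2 each have 1 alternative on the other side of 0.

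Further genes of the same symbols were mostly near 0, with AKR7A2 as the exception. Of 23 such genes whose symbols begin with AKR1, AKR7, CBR1, CBR3 or CBR4, 11 had 0 counts in every library, including AKR1C4 and AKR1B15, and 21 had at most 19 counts in any library. The other two, AKR7A2 and CBR3-AS1, were tested and neither passed. AKR7A2, a mitochondrial and Golgi aldehyde reductase, had 1659, 1604 and 1725 counts in control and 1838, 1603 and 2097 in CYT (log2 fold change 0.39, edgeR adjusted p = 0.346). The pseudogene AKR1C7P had 5, 19 and 9 counts in control and 0, 1 and 0 in CYT. AKR7L had 0, 2 and 2 counts in control and 6, 15 and 10 in CYT.

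Levels of different genes can be compared only per length, and the length used decided the order here. The length behind the deposited FPKM equalled the added length of all distinct annotated exons of GENCODE release 29, with overlapping exons counted more than once, for all 9 genes. The same held within 1 bp for 90.9% of 31927 genes compared. For AKR1B1 this length was 7940 bases, 5.64 times its principal transcript of 1409 bases. It was 6426 against 1818 bases for AKR1A1, 6688 against 1807 bases for AKR1C3 and 4422 against 1293 bases for CBR1. For CBR3 both lengths were 1169 bases. Deposited FPKM values therefore place CBR3 higher beside the other genes than a level per transcript length does.

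In deposited FPKM, control levels were 38.8 ± 3.43 for AKR1B1, 18.2 ± 2.40 for CBR3, 17.7 ± 2.56 for AKR1A1 and 17.0 ± 3.85 for CBR1 (SD, n = 3 each), and the last 3 did not differ beyond their spread. AKR1C3 at 3.32 FPKM and CBR4 at 2.05 FPKM overlapped each other, and AKR1B10, AKR1C1 and AKR1C2 were at 0.230 FPKM or less. In CYT the FPKM order was AKR1B1 at 66.5 ± 5.59, CBR3 at 35.9 ± 6.84, AKR1A1 at 13.1 ± 2.30 and CBR1 at 10.9 ± 1.0 (SD, n = 3 each). CBR3 was then above AKR1A1 and CBR1 in every library, while AKR1A1 and CBR1 overlapped. CBR4 at 4.13 FPKM and AKR1C3 at 2.04 FPKM followed and overlapped each other.

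With FPKM recomputed on the length of the principal transcript, control levels were 219 ± 19.3 for AKR1B1, 62.7 ± 9.05 for AKR1A1, 58.0 ± 13.2 for CBR1 and 18.2 ± 2.40 for CBR3 (SD, n = 3 each). On this scale CBR3 was below CBR1 in every control library, and AKR1C3 at 12.3 and CBR4 at 4.41 followed with no overlap between neighbours. In CYT the levels per transcript length were 375 ± 31.5 for AKR1B1, 46.5 ± 8.14 for AKR1A1, 37.3 ± 3.43 for CBR1 and 35.9 ± 6.84 for CBR3 (SD, n = 3 each), and CBR1 overlapped both of its neighbours in this order. CBR4 at 8.87 and AKR1C3 at 7.56 followed and overlapped.

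The 9 genes together amounted to 90.3, 103 and 99.7 FPKM in the control libraries and 141, 120 and 138 FPKM in CYT. Every CYT library was above every control library, and the mean log2 difference was 0.45 (two-sided exact permutation test, p = 0.1, the smallest that 3 against 3 libraries can give). It was 0.45 per length of the principal transcript as well. The share of AKR1B1 in the summed FPKM was 39.8 ± 2.47% in control and 50.0 ± 1.89% in CYT (SD, n = 3 each), a difference of 10.2 percentage points (exact permutation test, p = 0.1). Per transcript length the share was 58.3 ± 2.05% and 73.2 ± 1.58%. The share of CBR3 was 18.7 ± 2.45% and 26.8 ± 2.98% of the FPKM (exact permutation test, p = 0.1), but 4.87 ± 0.773% and 6.97 ± 0.901% per transcript length. AKR1A1 and CBR1 made up 18.2% and 17.3% of the FPKM in control, and 9.82% and 8.23% in CYT. Because all shares are of the same sum, they also fall when other genes rise. Mean levels went from 17.7 to 13.1 FPKM for AKR1A1 and from 17.0 to 10.9 FPKM for CBR1. On either scale the AKR1B1 share was higher in every CYT library than in any control library.

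**Figure D3:**
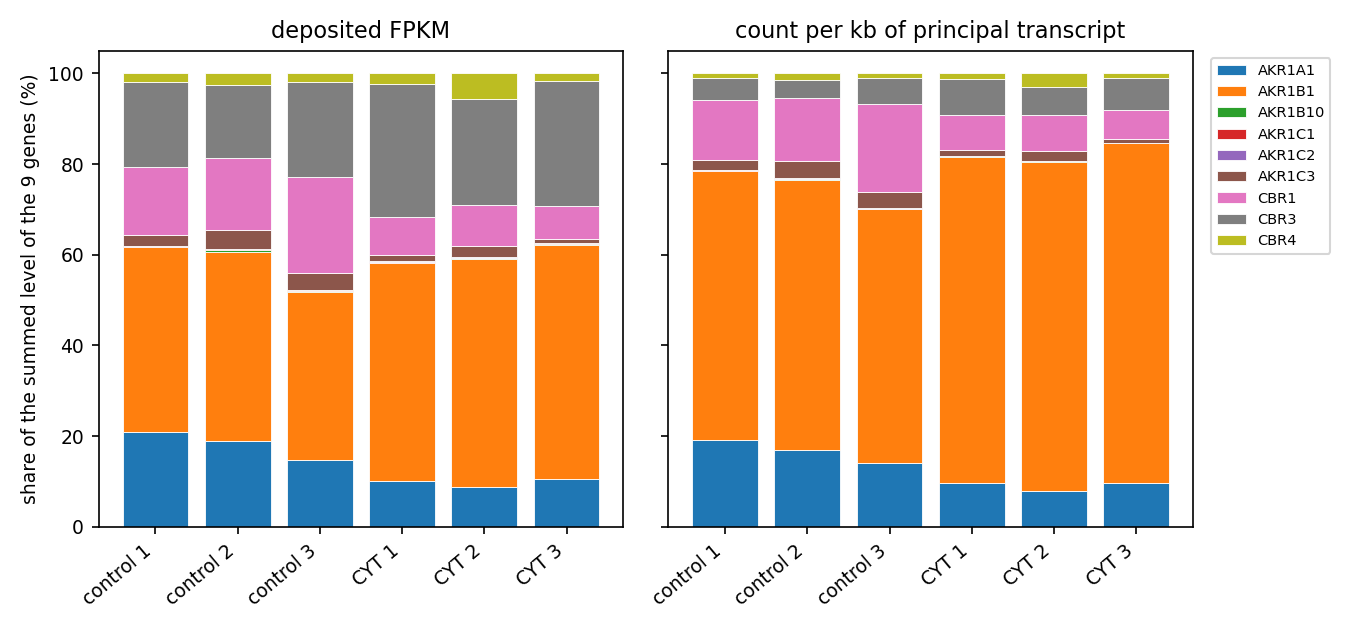
Share of each gene in the summed level of the 9 carbonyl reductase genes, in percent for each library, from deposited FPKM (left) and from counts per kilobase of the principal transcript (right). AKR1B1 took 37.0 to 41.6% of the FPKM in control and 48.0 to 51.7% in CYT, and the CBR3 band is narrower on the right than on the left.

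The regions before the transcription starts were searched for short motifs, as a description of sequence only. RefSeq (GRCh38.p14) gave 250 bases before a start for 7 of the 9 genes, with none for CBR3 and AKR1B10. The CCAAT letters, on either strand, occurred in 4 of the 7 genes and in 32.0% of 35116 promoters of the same length. Here and below, a gene was counted if any of its listed starts had the motif. The 35116 are single promoters, so the shares differ in unit. The 30 bases around this motif are shown for the AKR1C genes, in the direction of transcription with the reverse letters ATTGG in capitals, because the copies share them. AKR1C3 has 2 starts in that table, and both are shown.
AKR1C1, chr10:4963326-4963355, plus strand: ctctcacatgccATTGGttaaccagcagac
AKR1C2, chr10:5003921-5003950, minus strand: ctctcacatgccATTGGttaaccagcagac
AKR1C3, chr10:5048696-5048725, plus strand: cttttacatgctATTGGttaaccattaggc
AKR1C3, chr10:5094316-5094345, plus strand: ctcctacatgccATTGGttaaccatcagtc
The motif began 77, 81, 73 and 86 bases before these starts. Over the 250 bases, AKR1C1 and AKR1C2 were 96.5% identical, and AKR1C1 was 71.4% identical to the first AKR1C3 stretch and 69.5% to the second. The core letters of the antioxidant response element, TGACNNNGC on either strand, are bound by NRF2, a factor known to drive several AKR genes. They were found in 10.9% of all promoters and in CBR1 alone of the 7, and the stretch is shown because the targets of NRF2 were also counted.
CBR1, chr21:36069855-36069884, plus strand: tgcgggttctGCAAAGTCAggctagctggc
The motif is in capitals on the reverse strand and began 159 bases before the start. TATAAA was in 1 of the 7 genes (AKR1C3, first start only) and in 10.7% of promoters, GGGCGG in 3 and 42.6%, GCGTG in 3 and 32.2%, CACGTG in 2 and 6.34%, and TGANTCA in 0 and 6.57%, both strands counted. CBR1 alone held both CACGTG and GCGTG, 220 and 34 bases before its start.

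Related enzymes were counted from 6 lists, in which 17 genes were called, and 4 of them (RDH10, RDH13, NQO1 and TKT) kept the call in all 14 alternative fits. The calls of the other 13 were lost in at least 1 fit that left out a library. With the replicate number as a block, which called 39.9% of all genes, the genes called higher and lower were 4 and 2 of the other short-chain reductases, 2 and 1 of the quinone list, 3 and 4 of NADPH supply, 2 and 2 of the NRF2 list, 1 and 3 of the aldehyde dehydrogenases and 0 and 0 of the other aldo-keto reductases. Of 18 other short-chain carbonyl reductases tested, 3 rose and 2 fell, beside 28.6% of all genes called, 15.7% higher and 12.9% lower. Their median log2 fold change was 0.35, beside 0.0064 over all genes. RDH10, a retinol dehydrogenase, had the largest rise, with 163, 199 and 98 counts in control and 724, 1050 and 598 in CYT (log2 fold change 2.64, edgeR adjusted p = 0.00102). DHRS4L2 rose by 2.04 and DHRS1 by 1.18 on the log2 scale (edgeR, adjusted p = 0.0178 and 0.0210). DHRS4L2 is one of several close DHRS4 copies, and its count is uncertain. RDH13, a mitochondrial retinal reductase, fell by 2.10 on the log2 scale (edgeR, adjusted p = 0.00235), and HSD17B8 is described with CBR4. The calls of DHRS1, DHRS4L2 and HSD17B8 were lost without control replicate 1, and in turn without control replicate 3 and CYT replicate 1, control replicate 3 and CYT replicate 3, and CYT replicate 1 and 3. Of the other aldo-keto reductases, 3 of 10 were tested and 0 passed in edgeR, also 0 at an unadjusted p under 0.05 and 0 in DESeq2 and limma, with a median log2 fold change of 0.39. Without CYT replicate 1, 4 were tested and 1 was called higher. At an unadjusted p under 0.05 in edgeR, 1 of 4 was higher without control replicate 1, 2 or 3. It was 1 of 8 with no filter on low counts, and 0 were called in those fits.

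Of 10 tested genes that act on the quinone of anthracyclines, 1 rose and 1 fell, beside 28.6% of all genes called, and the median log2 fold change was 0.018. NQO1, which reduces quinones by transferring a pair of electrons, had 5908, 6958 and 5812 counts in control and 12160, 12889 and 11181 in CYT. The CYT libraries were all well above the control libraries, and the log2 fold change was 1.21 with a standard error of 0.25 (edgeR, adjusted p = 0.00698). NOS3, an endothelial nitric oxide synthase, fell by 1.79 on the log2 scale (edgeR, adjusted p = 0.0312). The call of NOS3 was lost without control replicate 1, control replicate 3 or CYT replicate 1.

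The carbonyl reductases draw their electrons from NADPH, and of 13 genes of NADPH supply, 2 rose and 3 fell, beside 15.7% of all genes called higher and 12.9% lower. The median log2 fold change of these genes was -0.38. TKT, transketolase of the pentose phosphate pathway, had 17224, 9234 and 10515 counts in control and 3376, 1881 and 3577 in CYT (log2 fold change -1.82, edgeR adjusted p = 0.00799). The cytosolic NAD kinase NADK fell by 1.23 and the folate enzyme MTHFD1 by 0.84 on the log2 scale (edgeR, adjusted p = 0.0152 and 0.0435). The mitochondrial NAD kinase NADK2 rose by 1.73 and the mitochondrial transhydrogenase NNT by 1.15 on the log2 scale (edgeR, adjusted p = 0.0393 and 0.0358). Both were highest in CYT replicate 2, with 1224 counts beside 313 and 402 for NADK2, and 1790 beside 889 and 937 for NNT. The call of NADK was lost without control replicate 1 or CYT replicate 1, and that of MTHFD1 without any library other than CYT replicate 2, with upper-quartile scaling, with either other filter on low counts and with protein-coding genes only. The calls of NADK2 and NNT were lost without control replicate 1 or 3 and in both limma fits, and that of NADK2 also without CYT replicate 2 and that of NNT without CYT replicate 3. Without CYT replicate 2 the log2 fold change was 0.91 for NADK2 and 0.77 for NNT (edgeR, adjusted p = 0.0970 and 0.0468).

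Of 18 genes of NRF2, its regulators and its antioxidant targets, 1 rose and 0 fell in edgeR, beside 28.6% of all genes called, and the median log2 fold change was 0.064. At an unadjusted p under 0.05, 2 were higher and 2 lower, and DESeq2 called 2 higher and 1 lower, beside 33.9% of all genes called. In edgeR, 4 were called higher and 1 lower without CYT replicate 2, beside 35.6% of all genes called, and 0 without control replicate 1, beside 18.3%. The gene that rose was ABCC2, a drug exporter, from 7, 16 and 18 counts in control to 45, 66 and 34 in CYT (log2 fold change 2.04, edgeR adjusted p = 0.0171), and its call was lost without control replicate 1 or 2. NFE2L2, which encodes NRF2, had a log2 fold change of -0.22 and its inhibitor KEAP1 of -0.04 (edgeR, adjusted p = 0.607 and 0.946). FTL, the ferritin light chain, had 40910 to 50849 counts in control and 37666 to 68780 in CYT (log2 fold change 0.56, edgeR adjusted p = 0.193). Without CYT replicate 2, its lowest CYT library, FTL passed at a log2 fold change of 0.80 (edgeR, adjusted p = 0.0334). These 18 genes leave out NQO1, which was counted with the quinone genes. NQO1 rose there and kept its call in all 14 alternative fits.

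Aldehyde dehydrogenases oxidize the aldehydes that several of the 9 enzymes reduce. Of 8 tested, 1 rose and 3 fell, beside 15.7% of all genes called higher and 12.9% lower, and the median log2 fold change was -0.033. ALDH9A1, which oxidizes amino aldehydes, rose by 1.12 on the log2 scale (edgeR, adjusted p = 0.0139). ALDH1B1, ALDH3A2 and ALDH3B1, which oxidize acetaldehyde and lipid aldehydes, fell by 0.88, 1.06 and 2.01 on the log2 scale (edgeR, adjusted p = 0.0385, 0.0300 and 0.0183). The call of ALDH9A1 was lost without control replicate 1 or 3 and that of ALDH3B1 without control replicate 1. The calls of ALDH1B1 and ALDH3A2 were lost without control replicate 1, control replicate 3, CYT replicate 1 or CYT replicate 3 and with upper-quartile scaling. That of ALDH1B1 was also lost without control replicate 2, with either other filter on low counts and with protein-coding genes only, and that of ALDH3A2 in both limma fits. ALDH1A1 had 0 counts in every library.

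**Figure D4:**
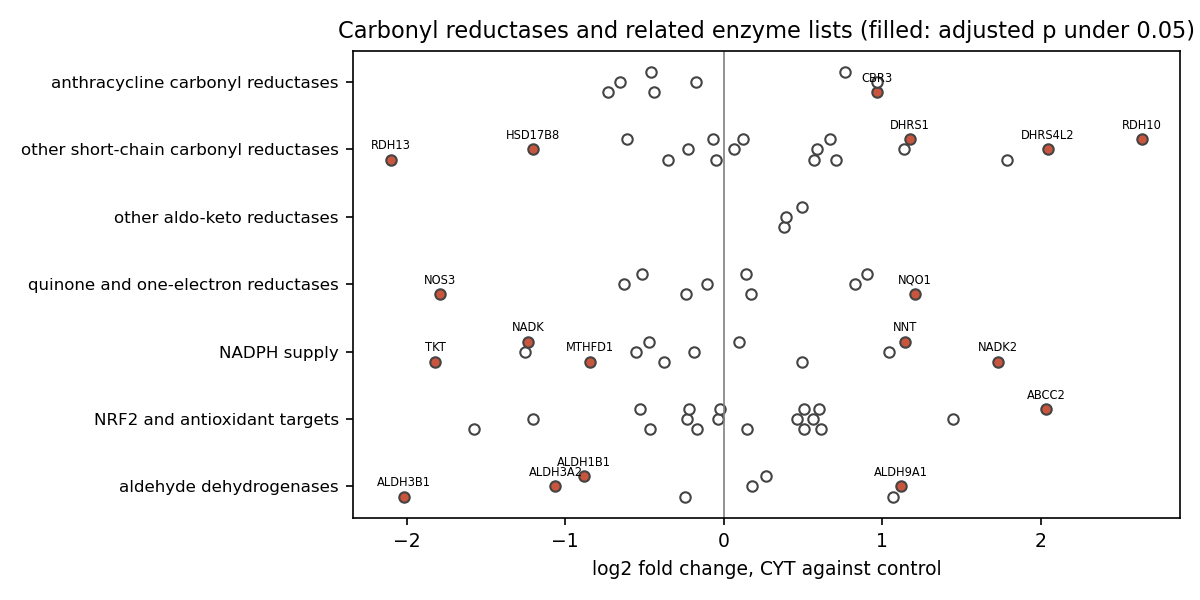
Log2 fold change of CYT against control in the edgeR fit for the 9 carbonyl reductases (8 tested) and for 6 lists of related enzymes. Each point is a gene, and filled, named points have an adjusted p under 0.05. CBR3 at 0.97 is the only filled point among the carbonyl reductases.

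For each tested gene, the gene with the most similar pattern over the 6 libraries was taken among 11411 candidates with a mean of at least 5 CPM, by Pearson's r of log2 CPM. These were LINC01145 for AKR1B1 (r = 0.998), BSDC1 for CBR3 (0.998), CPD for CBR4 (0.998), TIMM50 for AKR1A1 (0.996), RNF217 for AKR1C3 (0.993), ANKRD9 for AKR1C1 (0.991), SAYSD1 for CBR1 (0.987) and MT-CYB for AKR1C2 (0.986). The points share libraries and groups, and the highest r among so many genes is a description.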

How the data were processed

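RNA of 3 control and 3 CYT libraries was sequenced on the Illumina platform. The authors removed low-quality, adapter and ribosomal reads (FastQC 0.12.1 and build hg38 are named in the submitters' processing notes), aligned with Hisat2 and deposited raw counts per gene, whose counting program is not given in the sources used here. They also deposited FPKM, stated to come from Stringtie. No column of the authors' own comparisons was used.

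From the counts, CYT was compared with control by the quasi-likelihood test of edgeR 4.0.16 (R 4.3.3) on 15572 genes kept by filterByExpr at a minimum count of 10. Libraries were scaled by TMM, also for CPM, and p-values adjusted by Benjamini-Hochberg. Each standard error is the fold change on the log2 scale over the root of its F. Alternatives used DESeq2 1.42.0, upper-quartile scaling, other filters, limma 3.58.1 on log2(FPKM + 1) and log2(FPKM + 0.1), protein-coding genes only, a replicate block and leaving out each library. The scripts were tested on simulated data. Single values per library were compared by exact permutation tests (scipy 1.17.1). Coding sequences, transcript lengths and overlaps came from GENCODE release 29, where all 9 genes have the locus of the deposited table.

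Groups and replicate numbers came from the sample titles, which do not say that replicates were separate cultures, so p-values measure the spread between these samples, which may be technical. Every pair of replicates differed by more than sampling noise. Deviations from the group means correlated between same-numbered control and CYT libraries at r of 0.188, 0.458 and 0.124. However, control 1 correlated with CYT 3 at 0.303 and control 3 with CYT 1 at 0.201. Whether the numbers pair the libraries was therefore not settled. The main edgeR test was unpaired, and the replicate block is given as an alternative. Any pairing would rest on the data alone. Depth was 13056270 to 17770102 counts a library. A gene at 0 in a library could hold up to 3 counts, and this covers counting error only.

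The 9 genes, the lists of related enzymes and markers and the tests were chosen with earlier results of these data known. Named from the lists were genes past the threshold or, where none passed, the gene with the highest deposited FPKM, besides NFE2L2, KEAP1, FTL, ALDH1A1 and the markers, which were named after their values were seen. Further genes with AKR1, AKR7 or CBR symbols were also named. Of the genes and sequences chosen for description, 3 are not reported here, and list counts leave them out.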

Additional observations from a re-analysis of the deposited data

How the results depend on the processing

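CBR3 kept its direction in every alternative fit and its call in 8 of 14, AKR1B1 was called in 8 of 14, and AKR1A1 and CBR1 were called in 0 of 14. The count of carbonyl reductase genes called, 1 in edgeR, was 3 with DESeq2, 2 with upper-quartile scaling, 2 among genes averaging 5 CPM or more, 2 with limma on log2(FPKM + 1), 2 with limma on log2(FPKM + 0.1), 2 with protein-coding genes only, and 0 with no filter on low counts or when an absolute log2 fold change over 1 was also asked for. The replicate block gave 3 (AKR1B1, CBR3 and CBR4) and moved the count over all genes from 4451 to 6209, and it changed the call of no other of the 9 genes. Of all genes, 16.0 to 33.9% were called in these fits other than the block (39.9%), and 6 to 9 of the carbonyl reductase genes were tested. Leaving out 1 library gave 0 to 3 genes, with 0 without any control library or CYT replicate 1 or 3, where 17.6 to 23.3% of all genes were called, and 3 without CYT replicate 2, where 35.6% were. Over all genes, the count called was 2859 among genes averaging 5 CPM or more, a smaller set of genes, and 2891 to 5752 when 1 library was left out, lowest without control replicate 3. Upper-quartile scaling moved the median over all genes to 0.16 on the log2 scale and the split to 2879 higher and 1624 lower, from 2449 and 2002. The sign turned for AKR1C1 (-0.59 to 0.28 over libraries left out) and AKR1C2 (-1.30 to 0.034). For CBR1 and CBR3 added together, it turned to 0.040 with upper-quartile scaling, 0.40 and 0.41 with limma on log2(FPKM + 1) and log2(FPKM + 0.1), where the sum of FPKM weights CBR3 by its shorter length, and ranged from -0.21 to 0.041 over libraries left out. KEAP1 turned to 0.11 with upper-quartile scaling, 0.063 among genes averaging 5 CPM or more and 0.046 with protein-coding genes only, and ranged from -0.21 to 0.22 over libraries left out. The AKR1C sum, also with all AKR1C genes added (-0.69), the summed FPKM (0.39 to 0.52 over libraries left out) and both shares kept their direction in every alternative run. The 2 other gene lengths and TMM-scaled FPKM were added after seeing the data.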
